A study of Schizosaccharomyces pombe with 4 samples.

Results

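The genes described here encode the subunits of RNA polymerases I, II and III of the fission yeast Schizosaccharomyces pombe, with the general factors that place the polymerases on promoters. They were picked by a rule on gene names, which was set with earlier results of these data known. Each S. pombe gene on the array with a symbol of the rpa, rpb, rpc, sfc, tfa, tfb or taf series followed by a number, or named nuc1 or brf1, was taken. The rule found 57 of the 2899 S. pombe genes measured, each with 1 probe set, and all 57 were above background on at least 2 of the 4 arrays and so were among the 2857 genes tested. Read by current gene names, 30 of them are polymerase subunits and 26 are general factors. The remaining one carries the symbol taf1 on the array, but RefSeq names its locus atg11, an autophagy gene, so the polymerase label goes against its annotation. The gene with the symbol taf111 is the one that RefSeq now names taf1, the scaffold subunit of TFIID. The symbol taf73 is now taf51, and rpc10 encodes the subunit known as Rpb12.

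The study set cells labelled Atf1-OP, which overexpress the stress-response bZIP transcription factor Atf1, against control cells of a strain labelled wild type that carried the empty vector. There were 2 arrays for Atf1-OP and 2 for the empty vector, and the titles call the samples of each group biological replicates. The sources used here do not give the promoter that drives Atf1, the medium or the time of induction. Values are log2 probe set values after quantile normalization, so that a difference of 1 is a doubling, and the array holds probe sets for 2 yeasts, S. pombe and S. cerevisiae.

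As background, RNA polymerase I makes the large ribosomal RNA precursor, RNA polymerase II makes messenger RNA, and RNA polymerase III makes transfer RNA and 5S ribosomal RNA. Each enzyme has its own largest and second-largest subunits, which form the catalytic centre, and its own peripheral subunits, while several small subunits are built into all of the enzymes and a pair of them is shared by polymerases I and III. Polymerase II is recruited with TFIID, which recognises the promoter, TFIIE, and TFIIH, which opens the DNA and phosphorylates the polymerase. Polymerase III is recruited by TFIIIC, by TFIIIB and, at 5S genes, by TFIIIA. Atf1 acts below the stress-activated kinase Sty1.

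The atf1 gene itself read 6.83 and 7.37 on the Atf1-OP arrays, against 6.13 and 6.42 on the empty vector arrays. It was 1.78-fold higher under overexpression, with a log2 difference of 0.83 ± 0.20 (SE) at an adjusted p of 0.0262 in limma. That p became 0.142 without Atf1-OP replicate 2, 0.118 without empty vector replicate 1 0.0698 without empty vector replicate 2 and 0.0687 without the variance trend. The sources used here do not say whether the probes read the gene on the vector as well as the chromosomal one.

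Across all genes tested, 10.3% were higher and 11.1% lower in Atf1-OP at an adjusted p under 0.05. At an unadjusted p under 0.05 in limma, 520 of the 2857 were higher and 572 lower. Groups did not overlap in the higher direction for 31.9% of genes and in the lower direction for 34.4%. All 293 higher and all 318 lower genes were without overlap, so a lack of overlap adds nothing to a call. The groups also differed in technical readings. The 27 hybridization control probe sets were all lower in Atf1-OP, at a mean deposited log2 value of 10.9 against 11.9 with the empty vector. The spiked-in poly-A transcripts had a mean of 4.61 in Atf1-OP against 3.06 with the empty vector at their 5′ ends. That empty vector mean was not above the deposited background of those arrays, at 3.06 and 3.16. The means were 6.93 in Atf1-OP against 5.71 with the empty vector in the middle, and 9.30 against 8.96 at the 3′ ends. The median S. pombe probe set was deposited at 6.96 and 6.97 in Atf1-OP and at 6.80 and 6.70 with the empty vector, and the arrays were brought to 1 distribution for that reason. The part of these differences in the results below was not tested. Each value is an average over a culture, so a change in RNA per cell and a change in the mix of cells cannot be told apart.

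Of the 57 genes, 8 were higher in Atf1-OP, 10 were lower and 39 did not pass. The shares of 14% higher and 17.5% lower stand beside the 10.3% and 11.1% of all genes. The median log2 difference was -0.10, and -0.01 over all genes tested. The groups did not overlap in 17 genes that read higher in Atf1-OP and in 24 that read lower, or 29.8% and 42.1%, and they overlapped in the other 16. One of the higher genes, brf1, was not above background on either empty vector array, so its fold is only a bound. The background filter kept brf1 through its Atf1-OP arrays alone. Without brf1 the counts were 7 higher and 10 lower of 56, the differences ran between -0.83 and 0.77, and 10 genes differed by at least 1.5-fold. Without atg11 the counts were likewise 7 higher and 10 lower of 56. The split depended on the scaling: on the deposited values, where the median of all genes was 0.27, 15 of the 57 were higher and 3 were lower, and among all genes 903 were higher and 116 lower, against 293 and 318 after quantile normalization.

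**Figure D1:**
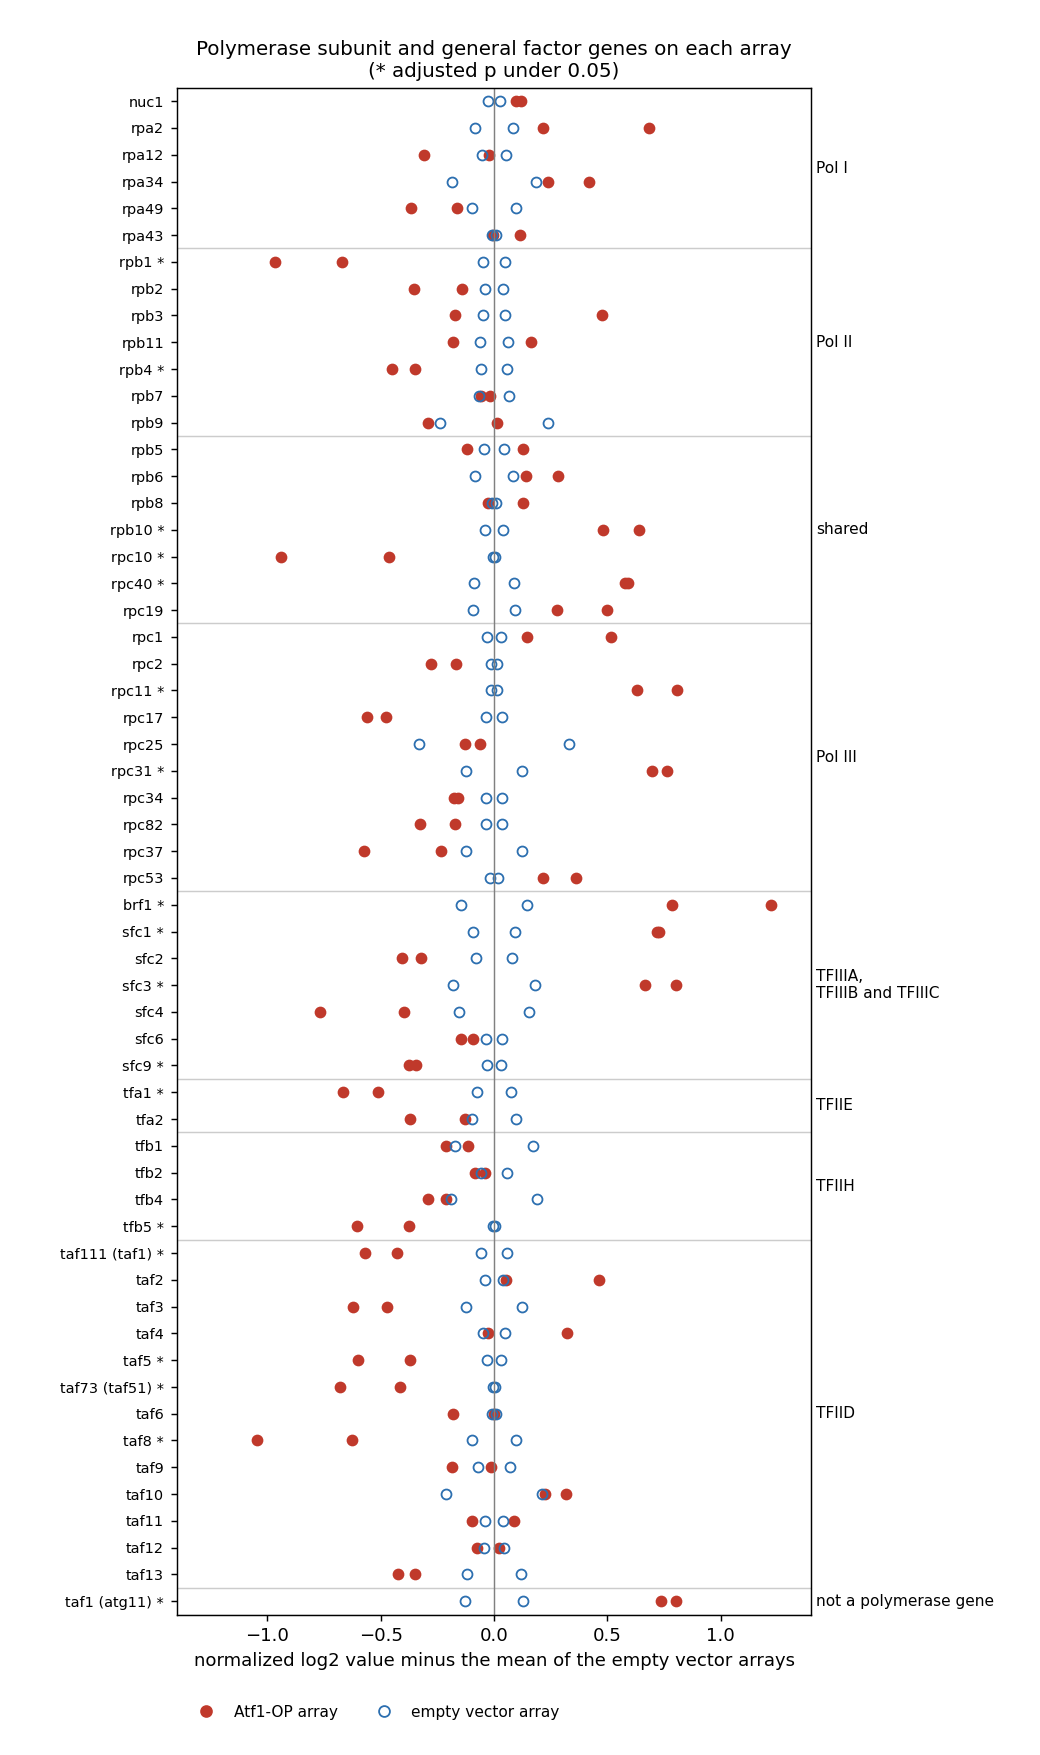
Normalized log2 value of each of the 57 genes on each array, minus the mean of the 2 empty vector arrays, so that 0 is that mean; filled points are Atf1-OP arrays, open points are empty vector arrays, and an asterisk marks an adjusted p under 0.05. The 18 genes that passed stand clear of their empty vector points, with taf8 at a mean of -0.83 and atg11 at 0.77; the empty vector points of brf1 were not above background, so its distance cannot be ranked.

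After quantile normalization, the 30 polymerase subunits were evenly divided, with 15 positive and 15 negative differences. Of these, 4 were higher, 3 were lower and 23 did not pass. The shares of 13.3% higher and 10% lower stand beside 10.3% and 11.1% of all genes. Their median log2 difference was -0.00. The 26 general factors had 3 higher, brf1 among them, 7 lower and 16 not passed, and a median of -0.21. Their shares were 11.5% higher and 26.9% lower, beside 10.3% and 11.1% of all genes. The 11.5% counts brf1, and apart from it the higher factors were sfc1 and sfc3. Of these factors, 20 had a negative and 6 a positive difference, beside 1463 negative and 1394 positive over all genes tested. The split on the deposited values was 11 negative and 15 positive for the factors, and 7 negative and 22 positive for the subunits. All genes had 684 negative and 2172 positive there. The difference between subunits and factors was not tested.

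**Figure D2:**
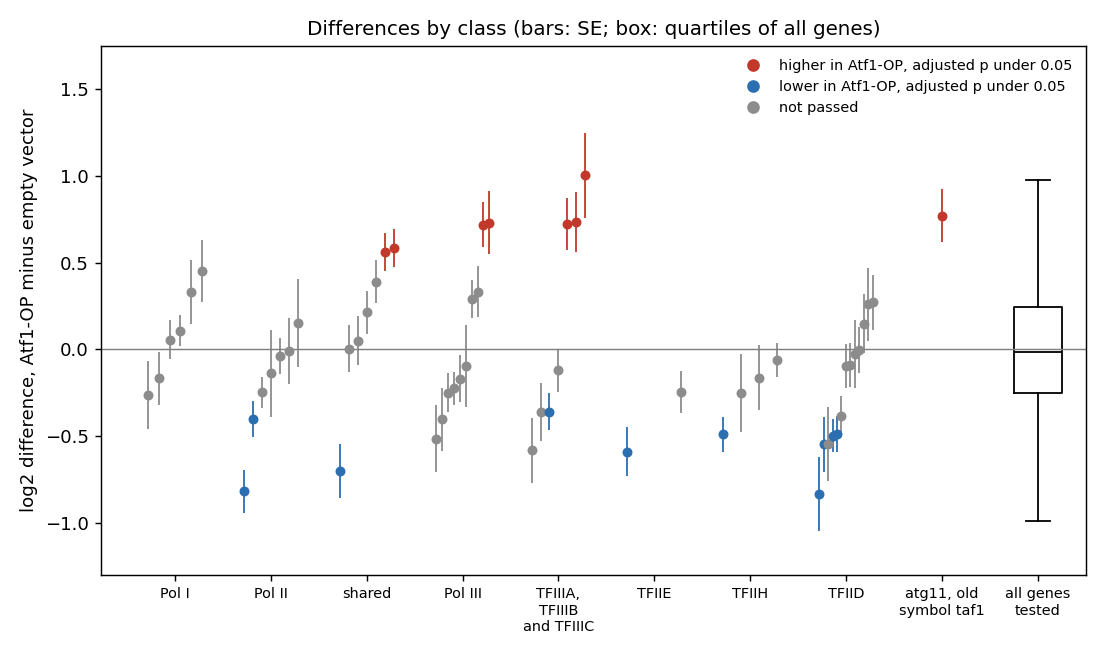
Log2 difference of each gene, Atf1-OP minus empty vector, grouped by complex, with bars for the SE and colours for genes that passed in either direction; the box shows the quartiles of all 2857 genes tested, and brf1 is drawn at its fitted difference although its empty vector values were not above background. The 6 polymerase I genes all stay grey, the 4 TFIID genes that passed lie below 0, and the polymerase III factors lie on both sides of 0.

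None of the 6 subunits particular to polymerase I passed, in either direction, in the limma fit. At an unadjusted p under 0.05, 1 was higher and 0 were lower, beside 520 and 572 of all 2857 genes. The median log2 difference was 0.08. The largest subunit gene, nuc1, read 8.44 and 8.42 in Atf1-OP and 8.29 and 8.34 with the empty vector, a difference of 0.11 ± 0.09 (SE; adjusted p of 0.404). The second-largest subunit gene, rpa2, read 6.63 and 7.10 in Atf1-OP and 6.33 and 6.50 with the empty vector, a difference of 0.45 ± 0.18 (SE; adjusted p of 0.110). These catalytic subunit genes both read higher in Atf1-OP without overlap. For rpa34, whose product pairs with that of rpa49 in a peripheral module, the values were 6.08 and 5.90 in Atf1-OP and 5.85 and 5.48 with the empty vector, and the adjusted p was 0.227. Its partner rpa49 had the opposite sign, at 4.25 and 4.45 in Atf1-OP and 4.52 and 4.72 with the empty vector, a difference of -0.27 that turned to 0.08 under median centring and to 0.30 on the deposited values. On the deposited values, rpa2 and rpa34 passed as higher, at adjusted p of 0.0211 and 0.0280, and under median centring at 0.0435 and 0.0445. The stalk subunit gene rpa43 differed by 0.06 and rpa12, whose product aids RNA cleavage, by -0.17, both with overlapping values.

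Polymerase II had the member with the smallest adjusted p of the 57. The gene rpb1 encodes its largest subunit, which carries the C-terminal repeat domain phosphorylated during transcription. It read 7.86 and 7.56 in Atf1-OP, against 8.48 and 8.58 with the empty vector. The group means were 7.71 ± 0.21 in Atf1-OP and 8.53 ± 0.07 with the empty vector (SD, n = 2 arrays each). The gene was 1.77-fold lower in Atf1-OP, which on the log2 scale is -0.82 ± 0.12 (SE), and its adjusted p in limma was 0.00707. Of all genes tested, 1.51% had a difference as low or lower. It passed with 3 of the 4 arrays left out in turn, at an adjusted p of 0.0633 without empty vector replicate 2.

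The second-largest subunit gene, rpb2, read 9.74 and 9.95 in Atf1-OP and 10.13 and 10.06 with the empty vector. It did not overlap between groups, and its difference of -0.25 ± 0.09 (SE) had an adjusted p of 0.0862. The p became 0.0416 with the length correction, 0.141 under median centring and 0.888 on the deposited values, where the difference was -0.02. The other subunit gene that passed was rpb4, which forms with rpb7 the stalk where the transcript leaves the enzyme. It read 7.70 and 7.80 in Atf1-OP and 8.21 and 8.09 with the empty vector, 1.32-fold lower with an adjusted p of 0.0317, and -0.25 with an adjusted p of 0.116 on the deposited values. Its adjusted p was between 0.0598 and 0.230 with any 1 of the 4 arrays left out. Its partner rpb7 read 7.79 and 7.75 in Atf1-OP and 7.87 and 7.74 with the empty vector, so the groups overlapped, with a difference of -0.04 ± 0.11 (SE). The difference between the stalk partners was not tested.

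The genes of the assembly platform, rpb3 and rpb11, had differences of 0.15 and -0.01 with overlapping values. The gene rpb9, whose product takes part in proofreading, was above background on only 1 of the empty vector arrays and differed by -0.14. Of the 7 subunits particular to polymerase II, 2 were therefore lower and 5 did not pass, and 0 were higher both in the limma fit and at an unadjusted p under 0.05. The lower share was 28.6%, beside 11.1% of all genes. The median log2 difference was -0.14.

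Of the 7 genes that encode subunits of more than 1 polymerase, 2 were higher and 1 was lower in Atf1-OP, with a median log2 difference of 0.21. These shares of 28.6% and 14.3% stand beside 10.3% and 11.1% of all genes. The gene rpc40 encodes the larger subunit of the platform that polymerases I and III share, the counterpart of Rpb3. It read 8.01 and 8.02 in Atf1-OP and 7.52 and 7.34 with the empty vector. It was 1.5-fold higher, by 0.59 ± 0.11 (SE) in log2, at an adjusted p of 0.0137. Its platform partner rpc19, the counterpart of Rpb11, read 8.06 and 7.84 in Atf1-OP and 7.65 and 7.47 with the empty vector. The call of rpc40 held without Atf1-OP replicate 1, at 0.0361, and not without the others, at 0.058 to 0.12. For rpc19 the difference of 0.39 ± 0.12 (SE) had the same sign, without overlap, and an adjusted p of 0.0612. It passed on the deposited values (0.0179), with the length correction (0.0346) and with a robust variance trend (0.0428), and did not under median centring (0.0728).

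The genes rpb10 and rpc10 encode small zinc-binding subunits of all 3 enzymes, which sit beside the platform, and they passed in opposite directions. The gene rpb10 read 8.24 and 8.08 in Atf1-OP and 7.56 and 7.64 with the empty vector, 1.48-fold higher with an adjusted p of 0.0142. The gene rpc10 read 7.94 and 7.47 in Atf1-OP and 8.41 and 8.40 with the empty vector, 1.63-fold lower with an adjusted p of 0.0204. Both kept their direction and passed under median centring and on the deposited values, where the log2 differences were 0.70 for rpb10 and -0.55 for rpc10. Neither passed when an empty vector array was left out, at an adjusted p of 0.103 and 0.0857 for rpb10 and of 0.0882 and 0.102 for rpc10. The other subunits of all 3 enzymes were rpb5 at a difference of 0.00, rpb6 at 0.21 and rpb8 at 0.05, and none of these passed.

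Of the 10 subunits particular to polymerase III, 2 were higher, 0 were lower and 8 did not pass in the limma fit. The higher share was 20%, beside 10.3% of all genes. At an unadjusted p under 0.05 the counts were 3 higher and 2 lower, beside 520 and 572 of all 2857 genes. The median log2 difference was -0.13. The gene rpc11 encodes the subunit that carries the RNA cleavage activity used in termination and reinitiation. It read 7.27 and 7.09 in Atf1-OP and 6.47 and 6.45 with the empty vector, and was 1.65-fold higher, by 0.72 ± 0.13 (SE) in log2, at an adjusted p of 0.0126. It passed without either Atf1-OP array, at 0.0364 and 0.04, and not without either empty vector array, at 0.0639 and 0.0772. The gene rpc31 encodes one of the 3 subunits of a module used in initiation. It read 5.42 and 5.49 in Atf1-OP and 4.85 and 4.6 with the empty vector, 1.66-fold higher with an adjusted p of 0.0283. The deposited values gave rpc31 a larger difference of 1.25, and median centring gave 1.03. With an array left out its adjusted p lay between 0.0582 and 0.164, so it did not pass in any of these 4 fits.

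The other genes of that module had the opposite sign, with rpc82 at -0.25 and rpc34 at -0.17, both without overlap and neither passing. The sign of rpc34 turned to that of rpc31 on the deposited values, at 0.16, where rpc82 was at -0.10. The difference between rpc31 and its module partners was not tested. The largest subunit gene, rpc1, read 7.24 and 7.61 in Atf1-OP and 7.07 and 7.13 with the empty vector, with an adjusted p of 0.141. The second-largest subunit gene, rpc2, read 8.16 and 8.05 in Atf1-OP and 8.32 and 8.35 with the empty vector, with an adjusted p of 0.129. The catalytic subunit genes thus read in opposite directions without overlap, and neither passed. The genes rpc37 and rpc53 encode a heterodimer that takes part in initiation and termination. Their differences were -0.40 with an adjusted p of 0.141 for rpc37 and 0.29 with an adjusted p of 0.0925 for rpc53. The gene rpc53 read 7.78 and 7.93 in Atf1-OP and 7.55 and 7.58 with the empty vector. The gene passed on the deposited values, at 0.44 with an adjusted p of 0.0237. The stalk genes rpc17 and rpc25 differed by -0.52 and -0.10, with adjusted p of 0.0940 for rpc17 and 0.799 for rpc25. Both depended on the scaling, since on the deposited values rpc17 differed by 0 and rpc25 by 0.40, and median centring put rpc25 at 0.18.

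The factors that bring polymerase III to its genes moved in both directions, with 3 of 7 higher, 1 lower and 3 not passed. These shares of 42.9% and 14.3% stand beside 10.3% and 11.1% of all genes. The 42.9% counts brf1, which the background filter kept through its Atf1-OP arrays alone. Apart from brf1, the higher genes were sfc1 and sfc3. The gene brf1 encodes the subunit of TFIIIB that is related to TFIIB. It read 3.43 and 3.86 in Atf1-OP and 2.50 and 2.79 with the empty vector, where neither array was above background. With the background of those arrays as the lowest level that can be read, brf1 was at least 1.28-fold higher in Atf1-OP. The adjusted p of 0.0264 belongs to its fitted difference, which rests on empty vector values not above background, and not to that bound. Both sfc1 and sfc3 encode DNA-binding subunits of TFIIIC, as known from their S. cerevisiae counterparts. The gene sfc1 read 6.48 on both Atf1-OP arrays and 5.67 and 5.85 with the empty vector, 1.65-fold higher with an adjusted p of 0.0177. The gene sfc3 read 6.62 and 6.49 in Atf1-OP and 5.64 and 6.0 with the empty vector, 1.66-fold higher with an adjusted p of 0.0235. Both were higher on every scaling, at 1.07 on the deposited values. With an array left out, sfc1 did not pass in any of the 4 fits (adjusted p of 0.0607 to 0.0845), and sfc3 passed in the one without empty vector replicate 2 (0.0493) and not in the others (0.0981 to 0.114). For brf1 no value could be had without either Atf1-OP array, and its adjusted p was 0.0807 and 0.0645 without either empty vector array.

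The remaining TFIIIC genes all read lower in Atf1-OP. The gene sfc9 read 7.35 and 7.38 in Atf1-OP and 7.69 and 7.75 with the empty vector, 1.28-fold lower with an adjusted p of 0.0487, the one closest to the threshold among the 18 genes. Its adjusted p was 0.160 on the deposited values, and between 0.0785 and 0.271 with an array left out. The gene sfc4, whose product bridges TFIIIC to TFIIIB in S. cerevisiae, had a difference of -0.58 ± 0.19 (SE) and an adjusted p of 0.0639, and sfc6 had -0.12 with an adjusted p of 0.504, which turned to 0.09 on the deposited values. The gene sfc2 encodes TFIIIA, the factor of 5S genes, and its difference of -0.36 had an adjusted p of 0.154 and turned to 0.12 on the deposited values. Within TFIIIC, 2 genes were thus higher and 1 lower of the 5 measured, and no test of the contrast among them was made.

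The polymerase II factor genes under the naming rule, of TFIIE, TFIIH and TFIID, were lower or did not pass. In TFIIE, the larger subunit gene tfa1 read 6.42 and 6.26 in Atf1-OP and 6.86 and 7.01 with the empty vector, 1.51-fold lower with an adjusted p of 0.0243, and at -0.31 with 0.115 on the deposited values. The smaller subunit gene tfa2 read 7.93 and 8.17 in Atf1-OP and 8.20 and 8.39 with the empty vector, in the same direction without overlap, with an adjusted p of 0.176. In TFIIH, tfb5, a small subunit that stabilises the complex, read 8.67 and 8.44 in Atf1-OP and 9.04 and 9.05 with the empty vector, 1.4-fold lower with an adjusted p of 0.0173, and at -0.28 with 0.0508 on the deposited values. The other TFIIH core genes measured here under the rule, tfb1, tfb2 and tfb4, had differences of -0.16, -0.06 and -0.25 and did not pass. Without empty vector replicate 1 or 2 neither tfa1 nor tfb5 passed, at adjusted p of 0.0786 to 0.152, and tfa1 also did not without Atf1-OP replicate 2, at 0.0978. The signs of tfb1, tfb2 and tfb4 depended on the scaling, with tfb1 at 0.33, tfb2 at 0.09 and tfb4 at 0.16 on the deposited values.

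TFIID contributed 13 genes, of which 4 were lower, 0 were higher and 9 did not pass in the limma fit. The lower share was 30.8%, beside 11.1% of all genes. At an unadjusted p under 0.05, 6 were lower and 0 were higher, beside 572 and 520 of all 2857 genes. The median log2 difference was -0.10. The scaffold gene taf111 read 8.55 and 8.41 in Atf1-OP and 9.03 and 8.92 with the empty vector, 1.41-fold lower with an adjusted p of 0.0139. The genes taf5 and taf73 both encode subunits of the Taf5 type with WD40 repeats. The gene taf5 read 8.63 and 8.40 in Atf1-OP and 8.97 and 9.03 with the empty vector, 1.4-fold lower with an adjusted p of 0.0180. The gene taf73 read 5.67 and 5.93 in Atf1-OP and 6.35 and 6.36 with the empty vector, 1.46-fold lower with an adjusted p of 0.0462. The histone-fold subunit gene taf8 had the largest decrease of the 57, at 4.63 and 4.21 in Atf1-OP and 5.35 and 5.16 with the empty vector, 1.78-fold lower with an adjusted p of 0.0296. Values did not overlap between groups for any of these 4 genes, as for all 318 genes that passed as lower.

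On the deposited values, taf111 was the only one of these 4 to pass, at a difference of -0.29 and an adjusted p of 0.0439. There taf5 had -0.29 with 0.0509, taf73 had -0.16 with 0.492 and taf8 had -0.27 with 0.341. Median centring ended the calls of taf73 and taf8, at adjusted p of 0.122 and 0.101. With 1 array left out, taf111 and taf5 passed without either Atf1-OP array, at 0.00902 to 0.0440, and not without either empty vector array, at 0.0870 to 0.14, while taf73 and taf8 passed in none of the 4 fits, at 0.0549 to 0.173. The next lowest p values belonged to the histone-fold genes taf13, at -0.39 with an adjusted p of 0.0541, and taf3, at -0.55 with an adjusted p of 0.105. Other histone-fold genes did not pass, with taf6 at -0.09, taf9 at -0.10, taf11 at -0.00, taf12 at -0.03, taf4 at 0.15 and taf10 at 0.27. Of these, taf6, taf9, taf11 and taf12 were positive on the deposited values. The gene taf2 had a difference of 0.26 and did not pass, and on the deposited values it was at 0.83 with an adjusted p of 0.0281.

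The deposited values ended most of the lower calls and none of the higher ones, and they moved the calls of all genes likewise. Over all genes tested, the lower calls went from 318 to 116 and the higher ones from 293 to 903, at a median of 0.27. On the deposited values, 3 of the 10 lower genes still passed, namely rpb1, rpc10 and taf111, while all 8 higher genes passed. Of the genes that had not passed, rpa2, rpa34, rpb6, rpc1, rpc19, rpc53 and taf2 passed as higher there, at adjusted p of 0.0179 to 0.0488, and 16 changed the sign of their difference. Median centring added taf13 as lower, at 0.0105, beside rpa2 and rpa34 as higher. Median centring kept 8 of the 10 lower and 8 of the 8 higher genes. A correction for gene length kept all but rpb4, which had an adjusted p of 0.0548 there. With quantile normalization over both yeasts, sfc9 and taf73 did not pass, at 0.0515 and 0.0605. All 18 genes had the same sign under each of these scalings. Without the trend of variance with level, rpb1, rpc11, rpc31, sfc1 and atg11 still passed, and the other 13 genes had an adjusted p of at most 0.0757.

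**Figure D3:**
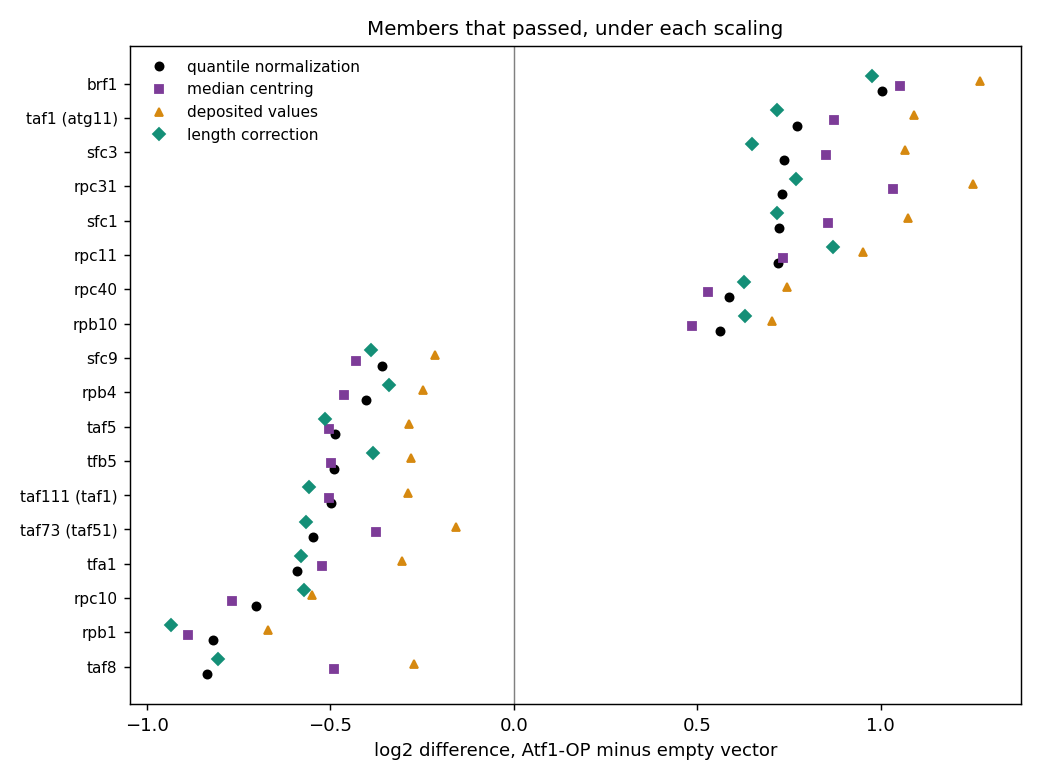
Log2 difference, Atf1-OP minus empty vector, of the 18 genes that passed, after quantile normalization (circles), median centring (squares), on the deposited values (triangles) and after a correction for gene length (diamonds). The triangles lie to the right of the circles for every gene, so that taf73 comes to -0.16 and rpc31 to 1.25, and no gene crosses 0.

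Leaving out 1 array leaves a single array in a group, which is then taken to vary like the other group. None of the 18 genes passed in all 4 of these fits, and rpb1 passed in 3. Fewer of the 18 genes still passed without an empty vector array than without an Atf1-OP array. The same was so over all genes tested, so this loss is not particular to the 18 genes. Every gene with a value kept its sign.

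**Figure D4:**
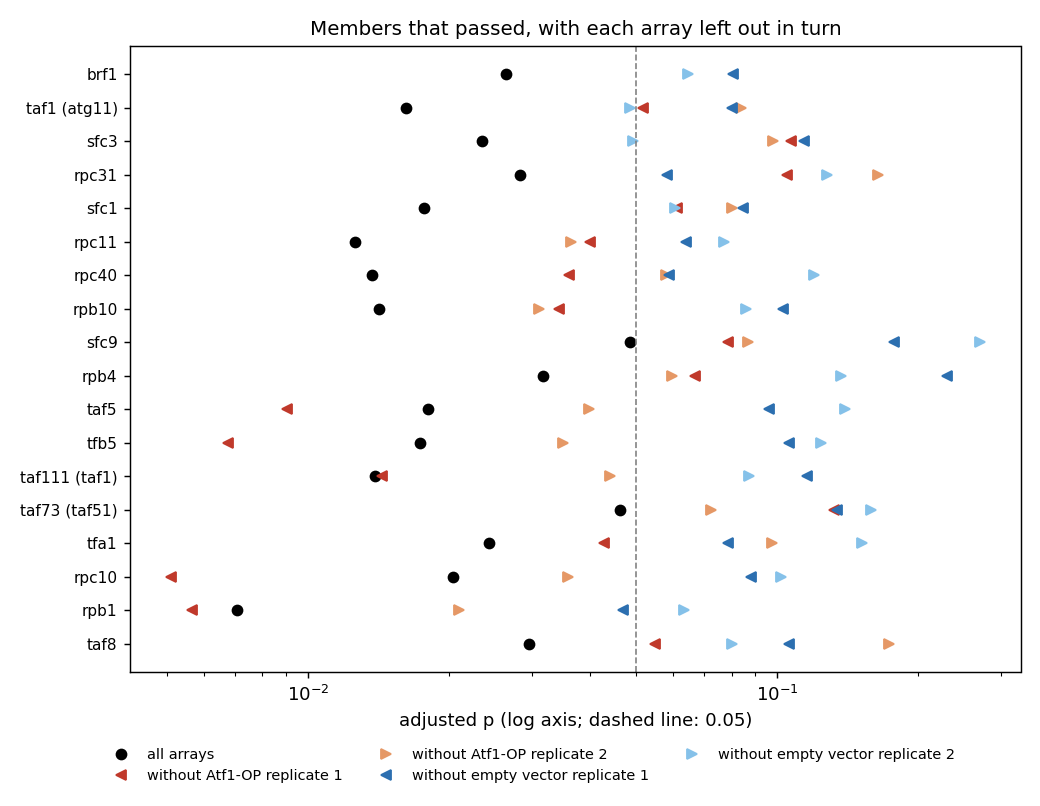
Adjusted p on a log axis for the 18 genes that passed with all arrays (black) and with each array left out in turn; the dashed line marks 0.05. Most coloured points lie to the right of the line, and rpb1 has 3 of its 4 to the left of it; brf1 has no value without either Atf1-OP array.

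The gene with the outdated symbol taf1, atg11, encodes a scaffold protein of selective autophagy and is no part of the transcription machinery. It read 6.67 and 6.73 in Atf1-OP and 5.8 and 6.06 with the empty vector, 1.71-fold higher with an adjusted p of 0.0162. The log2 difference was 0.77 ± 0.15 (SE), without overlap, and passed with 1 of the 4 arrays left out, at 0.0487 without empty vector replicate 2, against 0.0519 to 0.084 in the other fits.

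The 57 genes were compared in length and level with the rest. Their median gene length was 1561 bp, against 1875 bp for all genes tested. The 10 lower genes had a median of 1955.5 bp, against 1531 bp for all lower genes, and the 8 higher genes one of 1606.5 bp, against 2080 bp for all higher genes. Across the 57 genes, Spearman's rho between the difference and the length was 0.06, against 0.15 across all 2857, as a description over genes that share the same 4 arrays. With the mean level, rho was -0.12 over the 57 genes and -0.01 over all.

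Other genes of the same pathways were read from 6 lists of 63 names, of which 46 were tested, with 1 higher, 6 lower and 39 not passed, and a median log2 difference of -0.13. The 6 lower and 1 higher stand beside 11.1% and 10.3% of all genes. At an unadjusted p under 0.05 in limma, 4 of the 46 were higher and 10 lower, beside 520 and 572 of all 2857. Of the polymerase I factors, 2 of 7 were lower and 0 were higher in the limma fit, with 2 in each direction at an unadjusted p under 0.05. One of the 2 higher at that p was acr1, whose role among these factors is unsure. The gene rrn7 encodes the TFIIB-related core factor of polymerase I. It read 8.66 and 8.43 in Atf1-OP and 9.13 and 9.17 with the empty vector, 1.52-fold lower with an adjusted p of 0.00993, which became 0.0662 and 0.0826 without either empty vector array. The gene spp27, of the upstream activating factor, read 4.62 and 4.56 in Atf1-OP and 5.54 and 5.38 with the empty vector, 1.83-fold lower with an adjusted p of 0.0167. It did not pass on the deposited values, at -0.34 with 0.198, or with any array left out, at 0.0524 to 0.092.

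The kinase module of TFIIH, whose genes fall outside the naming rule, was divided. Its kinase gene mcs6, the Cdk7 of fission yeast, read 6.79 and 7.03 in Atf1-OP and 5.93 and 5.94 with the empty vector. It was 1.97-fold higher, by 0.97 ± 0.15 (SE) in log2, at an adjusted p of 0.00764, and it passed in every alternative run, the 4 with an array left out included. Its assembly factor gene pmh1 read 7.82 and 7.60 in Atf1-OP and 8.20 and 8.18 with the empty vector, 1.39-fold lower with an adjusted p of 0.0228, and 0.062 to 0.137 without Atf1-OP replicate 2 or either empty vector array. The cyclin gene mcs2 had a difference of -0.31 with an adjusted p of 0.136. Of the 11 genes tested from TFIIA, TFIIF, the rest of TFIIH and the TATA-binding protein, only mcs6 and pmh1 passed, 1 higher and 1 lower. They stand beside 10.3% higher and 11.1% lower of all genes, and the median was -0.16. The gene tbp1, whose product serves all 3 polymerases, read 8.62 and 8.96 in Atf1-OP and 8.66 and 8.44 with the empty vector, with an adjusted p of 0.216.

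Of 16 genes on the polymerase II elongation list, 3 were lower, 13 did not pass and 0 were higher in the limma fit. These stand beside 11.1% lower and 10.3% higher of all genes. At an unadjusted p under 0.05, 1 was higher and 5 were lower, beside 520 and 572 of all 2857 genes. The median difference was 0.03. The gene spt4, whose product binds Spt5 on the elongating polymerase, was 1.58-fold lower with an adjusted p of 0.0173, at 6.83 and 6.57 in Atf1-OP and 7.36 on both empty vector arrays. The others were cdk9 and pch1, which encode the kinase and the cyclin of P-TEFb. Without the variance trend none of the 3 genes passed in limma, at adjusted p of 0.0512 for spt4, 0.0732 for cdk9 and 0.0861 for pch1. The gene cdk9 read 7.16 and 6.97 in Atf1-OP and 7.51 and 7.47 with the empty vector, 1.35-fold lower with an adjusted p of 0.0434. The gene pch1 read 7.93 and 7.78 in Atf1-OP and 8.18 and 8.33 with the empty vector, 1.32-fold lower with an adjusted p of 0.0365. On the deposited values neither passed, at adjusted p of 0.142 for cdk9 and 0.0792 for pch1, and each of these 3 genes lost its call without Atf1-OP replicate 2 and without either empty vector array, at adjusted p of 0.0578 to 0.26.

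No gene passed in the remaining lists in the limma fit. The 6 genes of C-terminal domain phosphatases and termination had a median of -0.19, with 0 in either direction at an unadjusted p under 0.05, and were led by dhp1 at -0.21 with an adjusted p of 0.154 and seb1 at -0.23 with 0.231. The 3 polymerase III factors also had 0 in either direction at that unadjusted p. They included maf1, the repressor of polymerase III, at 0.48 with an adjusted p of 0.234, and sla1, the fission yeast La protein, at -0.16 with 0.297. The 3 polymerase assembly genes had 1 lower at the unadjusted p and were led by rba50 at -0.42 with an adjusted p of 0.0907 and fet5 at -0.24 with 0.224. The maf1 gene passed under median centring, at 0.77 with an adjusted p of 0.0296, and on the deposited values, at 0.99 with 0.0354. The names cph1 and elf1 do not belong to their lists by role, since cph1 encodes a protein of a histone deacetylase complex, and elf1 in S. pombe encodes an ATPase.

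Control probe sets on the array are named for S. pombe ribosomal RNA and for TFIID, and their deposited values were described without a test. They read labelled cRNA made from total RNA, so the ribosomal RNA readings are no direct measure of what polymerase I makes. All 7 probe sets for S. pombe ribosomal RNA were lower in Atf1-OP without overlap. The mean log2 difference was -0.66, with a range of -1.49 to -0.12. They read parts of 18S, 28S and 5.8S, so they are not 7 separate transcripts. At the 3′ end of 28S the groups almost met, at 12.899 and 13.127 in Atf1-OP against 13.141 and 13.135 with the empty vector. Of all 2857 genes, 684 had a negative difference on the deposited values, and the share without overlap was not counted there. The 5.8S probe set read 10.4 and 10.5 in Atf1-OP and 11.9 on both empty vector arrays. The one for the middle of 28S read 10.4 and 10.3 in Atf1-OP and 11.4 and 11.3 with the empty vector, and the 5′ one for 18S read 9.52 and 9.64 in Atf1-OP and 10.1 and 9.95 with the empty vector. The hybridization controls, which are added after labelling, were lower by 1.02 on the same arrays, and the part of that shift in the ribosomal RNA readings was not tested.

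The control probe sets named for TFIID differed in sign along 1 transcript. The 3′ one read 8.80 and 9.44 in Atf1-OP and 8.44 and 8.34 with the empty vector, a difference of 0.73. The middle one read 8.04 and 8.32 in Atf1-OP and 7.71 and 7.86 with the empty vector, a difference of 0.39. The 5′ one read 8.26 and 8.11 in Atf1-OP and 8.59 and 8.42 with the empty vector, a difference of -0.32. The sources used here do not say which TFIID gene these probe sets read.

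**Figure D5:**
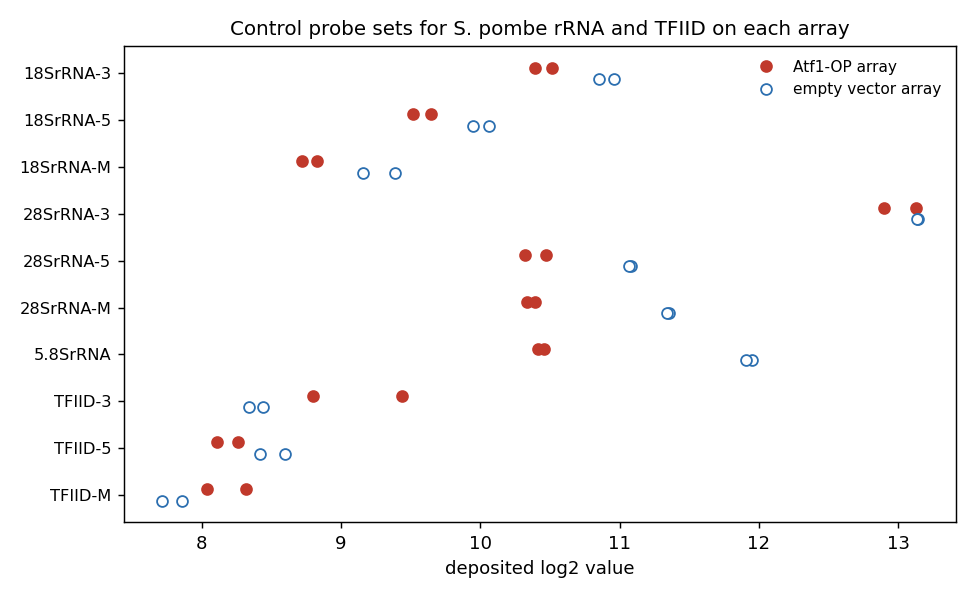
Deposited log2 values of the control probe sets for S. pombe ribosomal RNA and TFIID on each array, with filled points for Atf1-OP and open points for the empty vector. The 7 ribosomal RNA probe sets lie lower in Atf1-OP, farthest for 5.8S, and the TFIID probe sets lie higher in Atf1-OP at the 3′ end and middle and lower at the 5′ end.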

How the data were processed

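Biotinylated cRNA made from total RNA was read on Affymetrix arrays, per the labels' protocols. The authors deposited log2 values, with 1 value for each probe set of an array. The log2 scale is read from the span of the values, and the summarisation behind them is not given in the sources used here. Of 10928 probe sets, 2917 were named as S. pombe genes (113 symbols updated through RefSeq), 2601 as S. cerevisiae genes, 166 were controls, 5224 were unnamed and 20 held several genes. Array medians differed by more than 0.1, so quantile normalization was applied over the S. pombe probe sets. A gene was kept if above the 95th percentile of the S. cerevisiae probe sets on at least 2 of 4 arrays, which removed 42 of 2899 genes, and the brightest probe set stood for a gene. Background after normalization was 2.67 and 2.64 in Atf1-OP and 3.25 and 3.32 with the empty vector. No depth applies to arrays, and 2 arrays a group limit the precision.

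Groups were compared over all 2857 genes with limma 3.58.1 in R 4.3.3 (lmFit, eBayes with trend), at a Benjamini-Hochberg adjusted p under 0.05. The fit was run on simulated data with independent errors, which held no technical shift between groups and so cannot speak to one. An exact permutation test of 2 against 2 arrays cannot give a two-sided p below 0.333, so none was used. Arrays correlated at 0.993 within each group and at 0.973 to 0.983 between groups. Plots were made in Python 3.11.15 with matplotlib 3.10.9.

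The genes, lists and tests were chosen with earlier results of these data known. The text names atf1, every gene of the set (values for those that passed and the 3 smallest p of each complex), and from each of 6 pathway lists the genes that passed or the 2 with the smallest p. The alternatives changed the scaling, the background filter, the variance trend, the probe set rule or the threshold, corrected for length, used a replicate block or left out each array; the count without atg11 was added after its annotation was read, and the count without brf1 after its values were seen. Promoters and protein sequences were not used here.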

Additional observations from a re-analysis of the deposited data

How the results depend on the processing

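For the 57 genes, the 8 higher and 10 lower calls became 15 and 3 on the deposited values and 4 and 1 without the variance trend, and 4 lower calls had at least a 1.5-fold change. With 1 array left out, 0 to 5 genes were higher and 0 to 6 lower. The median difference of -0.10 was 0.20 on the deposited values, where that of all genes was 0.27, and -0.16 to -0.07 with 1 array left out. Over all genes, the 293 higher and 318 lower calls became 903 and 116 on the deposited values and 101 and 77 without the trend. Median centring gave 454 higher genes. An adjusted p under 0.1 gave 499 lower genes, and a change of at least 1.5-fold left 160 higher and 131 lower. With 1 array left out, 66 to 307 genes were higher and 30 to 359 lower. The cause of these shifts was not tested.

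Of the named genes, 24 turned in sign under at least 1 setting, and none of them had passed. On the deposited values these were rpa12 (0.11), rpa49 (0.30), rpb7 (0.096), rpb9 (0.22), rpb11 (0.48), rpc25 (0.40), rpc34 (0.16), sfc2 (0.12), sfc6 (0.094), tfb1 (0.33), tfb2 (0.091), tfb4 (0.16), taf6 (0.11), taf9 (0.080), taf11 (0.22), taf12 (0.45), sla1 (0.019) and rba50 (0.013). Under median centring they were rpa43 (-0.014), rpa49 (0.082), rpb5 (-0.017), rpb9 (0.0015), rpb11 (0.27), rpc25 (0.18), tfb1 (0.11), taf11 (0.0026) and taf12 (0.23). With quantile normalization over both yeasts they were rpb5 (-0.0037), rpb9 (0.29), rpb11 (0.043), tfb4 (0.12) and taf12 (0.15), and with the length correction nuc1 (-0.0022), rpb7 (0.017), rpb11 (0.064) and taf11 (0.076). With 1 array left out, rpa43 ran between -0.0045 and 0.12, rpb3 between -0.16 and 0.46, rpb5 between -0.12 and 0.13, rpb7 between -0.10 and 0.024, rpb8 between -0.023 and 0.14, rpb9 between -0.40 and 0.11, rpb11 between -0.19 and 0.17, rpc25 between -0.41 and 0.22, tfb1 between -0.33 and 0.0058, taf4 between -0.028 and 0.33, taf6 between -0.19 and 0.00062, taf11 between -0.096 and 0.088 and taf12 between -0.078 and 0.023. Over atf1, the 57 genes and the list genes named, 931 values kept their side of the threshold, 116 lost the call, 31 gained it and 54 turned.

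The deviations of same-numbered arrays from their group means had r = 0.04 across genes. With 2 arrays a group, that value cannot settle whether the numbers pair them. With the replicate number as a block, 10 of the 57 genes were higher and 13 lower, and 413 and 435 of all genes. That fit has fewer residual degrees of freedom for each gene than the main one. All 18 calls stayed, and 5 were added, rpa2 (adjusted p of 0.0254) and rpc19 (0.0153) as higher and rpb2 (0.0412), sfc4 (0.007) and taf13 (0.0149) as lower. With 2 arrays a group, low signal limits brf1 and rpb9 most.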
